A study of Mus musculus with 4 samples.

Results

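The 25 integrin genes and 10 laminin genes considered here were chosen by gene family, as 35 of the 21938 protein-coding genes of the annotation used (GENCODE M21 on the mouse assembly mm10). Chromatin accessibility was measured by ATAC-seq, in which a transposase inserts adapters into open DNA, in 2 SMC lines and 2 non-SMC lines of mouse small-cell lung cancer. Both line types were sorted from lung tumors of the Rb1 L/L, Trp53 L/L model, in which adenoviral Cre under a CMV promoter deletes both tumor suppressors in the airway, so all 4 lines share these deletions. SMC cells were sorted as NCAM high and CD44 low or negative and grew in suspension. Non-SMC cells were sorted as NCAM low and CD44 high and grew attached. The mice had a mixed C57Bl/6, Balb-c and S129 background, the lines were untreated, and each line gave 1 library. Replicates are therefore separate lines, and their spread includes any difference between lines of a type. The deposited peak lists hold no reads, so the deletion of Rb1 and Trp53 could not be checked in them.

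Integrins are cell surface receptors built from one alpha and one beta chain that join the extracellular matrix, or counter-receptors on other cells, to the actin cytoskeleton. Laminins are large trimers of an alpha, a beta and a gamma chain and form the sheet of the basement membrane to which several integrins bind. The alpha chain largely sets the ligand: some bind collagen, some laminin, some the RGD peptide of fibronectin and vitronectin, and a separate set is typical of leukocytes.

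A peak was counted for a gene when it touched the gene body or the 10 kb on each side. Peaks of the 4 lists that overlapped by 1 base were merged into a site. Sites touching a 6 kb window around the transcription start site (TSS) were treated as promoter sites and the rest as other sites. Where the 2 SMC lines had a peak and the 2 non-SMC lines had none, the site was called SMC-only. The mirror image was called non-SMC-only. Since 2 lines against 2 cannot give a two-sided exact permutation p below 0.333, no test between the types was made, and the members are described beside the same counts for all genes. In a bulk library, fewer cells open at a site and weaker opening in every cell cannot be told apart.

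The sequences printed come from the members chosen by their number of called sites or a called promoter, which leaves out Lamb1, on chromosomes other than 18. Each of these members entered with its top called site by mean percentile of fold enrichment, and the 2 highest in each direction are shown. They show where the differential sites lie and which short motifs they carry. Each is the 201 bases around the summit on the forward strand of mm10. Capitals mark the AP-1 letters TGACTCA or TGAGTCA and the SOX letters ACAAAG or ACAATG on either strand. The non-SMC-only site of Lamc1 lay at chr1:153300468-153300668 in an intron, 32.2 kb into the gene. The non-SMC-only site of Lamb3 lay at chr1:193298229-193298429 in an intron, 3.66 kb upstream of the nearest other start of the gene (-3.66 kb). The SMC-only site of Lama2 lay at chr10:27202520-27202720 in an intron, 417 kb from the TSS. The SMC-only site of Itga9 lay at chr9:118714612-118714812 in an intron, 108 kb from the TSS and 3.06 kb beyond the start of a shorter transcript.
Lamc1: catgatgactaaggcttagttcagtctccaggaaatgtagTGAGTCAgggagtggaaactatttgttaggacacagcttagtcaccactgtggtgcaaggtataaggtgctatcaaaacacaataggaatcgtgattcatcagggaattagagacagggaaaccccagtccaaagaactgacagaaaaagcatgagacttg
Lamb3: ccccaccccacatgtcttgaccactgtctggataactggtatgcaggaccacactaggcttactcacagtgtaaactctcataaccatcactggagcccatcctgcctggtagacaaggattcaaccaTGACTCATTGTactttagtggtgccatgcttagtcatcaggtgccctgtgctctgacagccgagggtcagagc
Lama2: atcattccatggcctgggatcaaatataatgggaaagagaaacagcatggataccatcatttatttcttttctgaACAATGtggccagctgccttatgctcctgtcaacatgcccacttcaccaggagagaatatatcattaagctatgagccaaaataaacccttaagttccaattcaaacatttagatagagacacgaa
Itga9: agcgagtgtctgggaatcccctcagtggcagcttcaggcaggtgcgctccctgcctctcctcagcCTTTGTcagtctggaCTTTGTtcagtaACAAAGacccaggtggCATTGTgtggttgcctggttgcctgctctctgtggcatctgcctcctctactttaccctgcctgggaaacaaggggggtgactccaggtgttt
The Lamc1 and Lamb3 sites each held 1 AP-1 match, and in Lamb3 it overlapped a SOX match on the other strand. The Itga9 site held 4 SOX matches and the Lama2 site 1, and neither held the AP-1 letters. At the Lamc1 site the peaks stood at percentiles 99.8 and 99.3 of fold enrichment within the lists of non-SMC lines 1 and 2. The Lamb3 peaks stood at 99.8 and 99.0 in the same lines. The Lama2 peaks stood at 97.0 and 99.1 in SMC lines 1 and 2, and the Itga9 peaks at 95.1 and 89.9. These percentiles are used below in place of fold enrichment, which depends on the depth of each library.

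The lists held 91057 and 153954 peaks in SMC lines 1 and 2, and 115837 and 128710 in non-SMC lines 1 and 2. The genome-wide background pileup recovered from the peak statistics was 0.456, 1.54, 1.49 and 0.639 in the same order, so that SMC line 1 and non-SMC line 2 were the shallower libraries. Strong peaks, defined by a −log10 q of 5 or more, numbered 13062, 26312, 43984 and 25103. The promoter of the neuroendocrine gene Chga was SMC-only, while those of Ncam1 and Syp had a peak in all 4 lines. Of the sorting marker Cd44, the promoter had a peak in SMC line 2 and both non-SMC lines, and strong peaks numbered 0, 0, 7 and 6. Among 4 leukocyte markers none had a promoter peak in both lines of a type, and Cd3e had none in any line. Among 4 fibroblast markers 3 had more strong peaks in each non-SMC line than in each SMC line (20% of all protein-coding genes). Their part in the results below was not tested. Among 3 endothelial markers 0 had such an excess, and the Pecam1 promoter was non-SMC-only.

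The integrin and laminin genes carried more sites open only in the non-SMC lines than sites open only in the SMC lines. Of 792 other sites, 87 (11.0%) were non-SMC-only and 32 (4.04%) were SMC-only. Over the 210818 other sites of all protein-coding genes, 7.3% were non-SMC-only and 4.26% SMC-only. The ratio of the calls was 2.72 for the members and 1.71 for all genes. The SMC-only share was thus near the background, and the excess lay on the non-SMC side. A peak in all 4 lines was found at 18 sites (2.27%, against 3.07% over all genes), and 590 sites (74.5%) had a peak in a single line. The direction of the difference depended on requiring both lines. Between the lines numbered 1 alone, 157 sites had a peak in SMC only and 248 in non-SMC only. Between those numbered 2 alone, the counts were 268 and 249, and the difference changed sign. The same counts were not made over all genes. Over all genes, SMC line 2 had a peak at 41.3% of the other sites and non-SMC line 2 at 34.0%. In the members these shares were 38.1% and 36.2%. For the lines numbered 1 they were 24.8% and 32.1% over all genes, and 24.0% and 35.7% in the members.

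The non-SMC-only share of the members stood above that of all genes, and the SMC-only share below it, under each of 4 other choices of peaks. With strong peaks alone (−log10 q of 5 or more), 57 of 165 other sites were non-SMC-only (34.5%, against 21.6%) and 6 SMC-only (3.64%, against 5.97%). With the 91057 peaks of lowest p from each list, the shares were 14.9% against 9.76% and 4.92% against 5.4%. After the lists were thinned to 50% of the depth of SMC line 1, keeping p up to 0.01, they were 15.5% against 9.29% and 3.94% against 4.62%. Keeping p up to 1e-05, they were 20.2% against 15.1% and 3.36% against 4.39%.

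A larger separation was seen among strong peaks. Per 10000 strong peaks of its list, SMC line 1 had 19.9 and SMC line 2 had 16.7 in the member genes, against 33.2 and 36.3 in non-SMC lines 1 and 2. The means were 18.3 ± 2.25 and 34.7 ± 2.16 (SD, n = 2), a difference of -16.4 against a pooled SD between lines of 2.21. Both non-SMC lines stood above both SMC lines, including non-SMC line 2 and SMC line 2, whose lists of strong peaks were of similar size and held 91 and 44 such peaks. This measure was not computed over all genes. Dividing by the length of a list does not adjust for its mix of promoter and other peaks. Over all peaks the difference was smaller, with 23.9, 22.9, 28.6 and 25.5 per 10000 (23.4 ± 0.716 against 27.0 ± 2.19, SD, n = 2). The median percentile of the members' peaks was 45.3 and 44.3 in the SMC lines, and 53.9 and 59.5 in the non-SMC lines, again without overlap.

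At the level of genes, 19 of the 35 members had more strong peaks in each non-SMC line than in each SMC line, against 20% of all protein-coding genes. None had more in each SMC line, against 3.15%. Of the 19, 15 were integrins and 4 laminins. In 9 genes, strong peaks were present in each non-SMC line but absent from the SMC lines (7.54% of all protein-coding genes), and 8 of these were integrins. The reverse was found in 0 members (1.76%). When the same number of strongest peaks (13062) was taken from each list, 9 members were higher in each non-SMC line (background 8.06%), and Itga9, Itga10 and Lama4 were higher in each SMC line (8.28%). At other thresholds the members higher in each non-SMC line numbered 20 (−log10 q from 3, background 22.2%), 14 (from 10, 14.3%), 13 (thinned lists at p up to 1e-05, 13.2%) and 10 (all peaks, 12.7%). Those higher in each SMC line numbered 1 (4.54%), 0 (1.26%), 1 (3.25%) and 2 (12.3%) in the same order. The members were long genes, with a median length of 64.4 kb against 17.4 kb for all protein-coding genes, and these counts of genes are not matched for length, whereas the shares of sites above are per site.

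**Figure D1:**
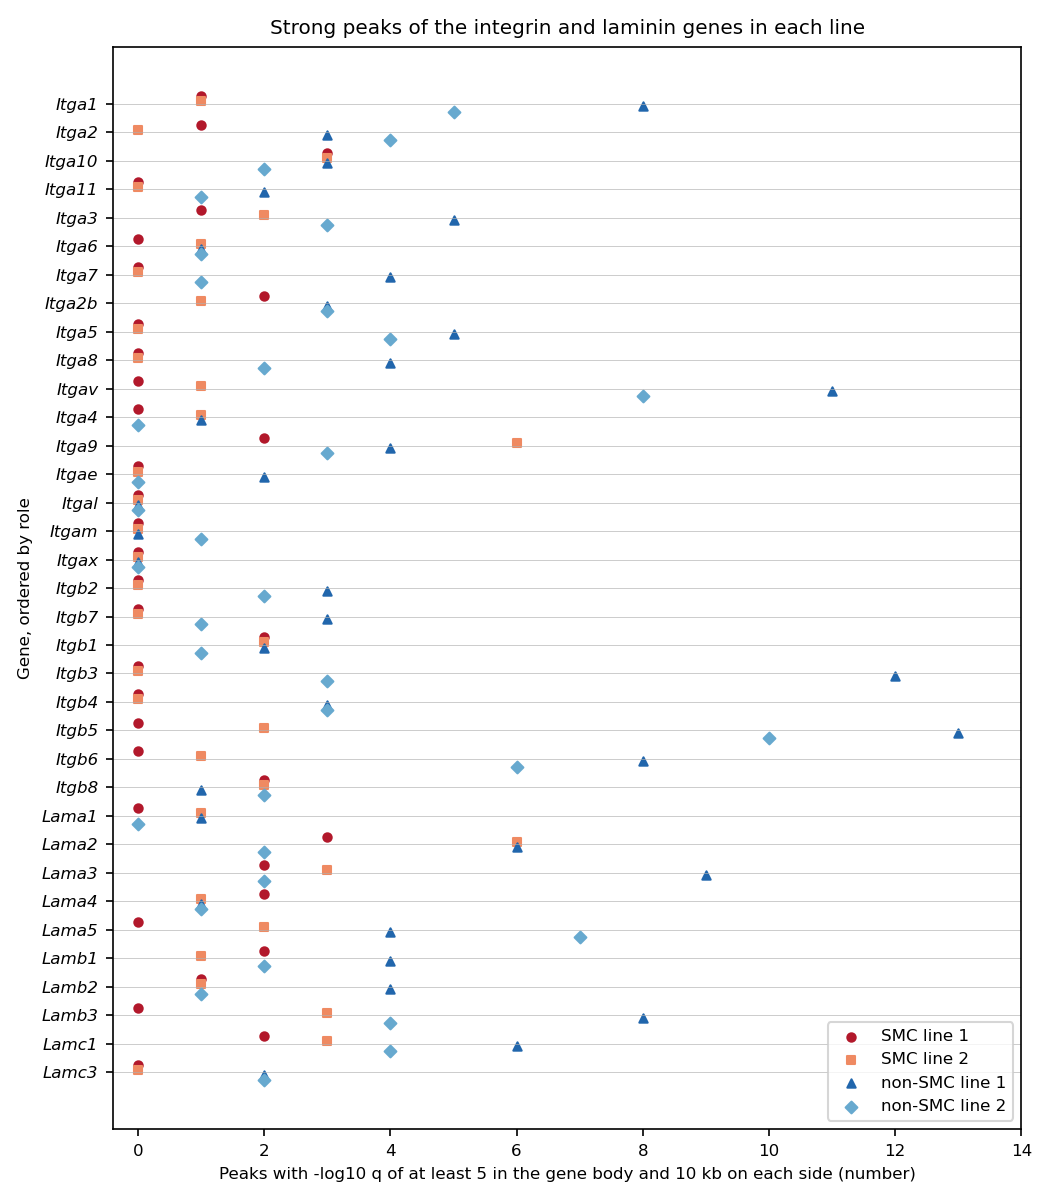
Number of strong peaks (−log10 q of at least 5) in the gene body and 10 kb on each side of each integrin and laminin gene, with 1 point for each of the 4 lines and the genes ordered by role. Both non-SMC lines lie to the right of both SMC lines in 19 of 35 genes, with the highest counts at Itgb5 (13 and 10), Itgb3 (12 and 3) and Itgav (11 and 8).

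Non-SMC-only sites were most frequent among the RGD-binding alpha chains and the integrin beta chains outside the leukocyte group. The RGD-binding alpha chains had 13 non-SMC-only sites of 52 (25.0%) and 1 SMC-only site. The 6 integrin beta chains outside the leukocyte group had 27 of 138 (19.6%) and 3 SMC-only sites. These include Itgb4 with 3 of 17, the partner of the laminin receptor chain Itga6. Itgav and the 5 beta chains known to pair with it (Itgb1, Itgb3, Itgb5, Itgb6 and Itgb8) were grouped after the values were seen. They had 138 other sites, with 31 of the 87 non-SMC-only sites and 2 SMC-only sites. Their strong peaks numbered 4 and 8 in the SMC lines and 47 and 30 in the non-SMC lines. Of these genes, Itgb1 had 2 and 2 strong peaks in the SMC lines and 2 and 1 in the non-SMC lines. Itgb8 had 2 and 2, and 1 and 2, so that the types overlapped at both genes.

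Itgb3 (chr11:104608000-104670476), the beta chain of the vitronectin receptor and of the platelet fibrinogen receptor, had the most non-SMC-only sites. In the order of SMC lines 1 and 2, then non-SMC lines 1 and 2, which is kept below, it had 7, 14, 18 and 16 peaks, of which 0, 0, 12 and 3 were strong. Its 9 non-SMC-only sites lay between 3.76 kb and 65.7 kb from the TSS, 5 of them held the AP-1 letters, and there was no SMC-only site. The non-SMC lines were thus higher in peaks and in strong peaks, although non-SMC line 1 had most of the latter. With a −log10 q from 10, its peaks numbered 0, 0, 9 and 0, and the types overlapped. From 3 they numbered 0, 1, 15 and 7, without overlap. With strong peaks alone, 2 of its other sites were non-SMC-only, and in lists thinned at p up to 1e-05 none. The local background at its peaks was 1.27, 1.07, 3.02 and 1.66 times the genome background, and its part in the calls was not tested. The site nearest to the TSS had percentiles of 81.2 and 85.3. The promoter had a peak in all 4 lines, at percentiles of 37.9, 44.1, 63.7 and 57.9.

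Itgav (chr2:83724397-83806916) encodes the alpha chain that pairs with these beta chains. It had 2 and 5 peaks in the SMC lines and 14 and 13 in the non-SMC lines, with 0, 1, 11 and 8 strong peaks. Of its 17 other sites, 7 were non-SMC-only and none SMC-only, and the groups did not overlap on either count. The highest non-SMC-only site lay in an intron 4.17 kb from the TSS, with percentiles of 89.8 and 96.8. Its promoter had a peak in every line, which stood at percentile 19.7 and 80.3 in the SMC lines and 80.8 and 93.1 in the non-SMC lines, and was strong in the non-SMC lines alone.

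Itgb5 (chr16:33829665-33949338), another partner of Itgav in vitronectin binding, had 8, 20, 22 and 18 peaks, so that SMC line 2 lay within the range of the non-SMC lines. Its strong peaks numbered 0, 2, 13 and 10 and did not overlap. It had 6 non-SMC-only sites, of which 5 held the AP-1 letters, and 1 SMC-only site. An opposite pair of sites lay close together in 1 region of the gene, a non-SMC-only site at 87.1 kb and the SMC-only site at 88.4 kb, the latter at percentiles of 11.2 and 44.6.

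Itgb6 (chr2:60598292-60722643), an epithelial partner of Itgav that activates latent TGF-beta, had 1, 15, 15 and 10 peaks and 0, 1, 8 and 6 strong peaks. Its 5 non-SMC-only sites included 3 with high peaks in both lines: at 33.4 kb (99.1 and 98.5), at 89.6 kb (92.4 and 98.7) and at 22.4 kb (94.1 and 94.6). A single one of the 5 held the AP-1 letters. The number of peaks overlapped between the types and the number of strong peaks did not.

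Itga5, the alpha chain of the classical fibronectin receptor, had 2 and 5 peaks in the SMC lines, 11 and 5 in the non-SMC lines, and 0, 0, 5 and 4 strong peaks. Its highest non-SMC-only site lay 7.96 kb into the gene at percentiles of 98.1 and 99.2. The local background at its peaks, as a ratio to the genome background, was 2.31 and 2.44 in the SMC lines and 5.32 and 4.94 in the non-SMC lines, the highest ratio of any member. Itgb7, on the same chromosome (15), had ratios of 1.72, 1.49, 3.80 and 4.24. The part of this raised background in their calls was not tested. Itga8, a receptor for nephronectin, had 3 non-SMC-only sites and 0, 0, 4 and 2 strong peaks.

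**Figure D2:**
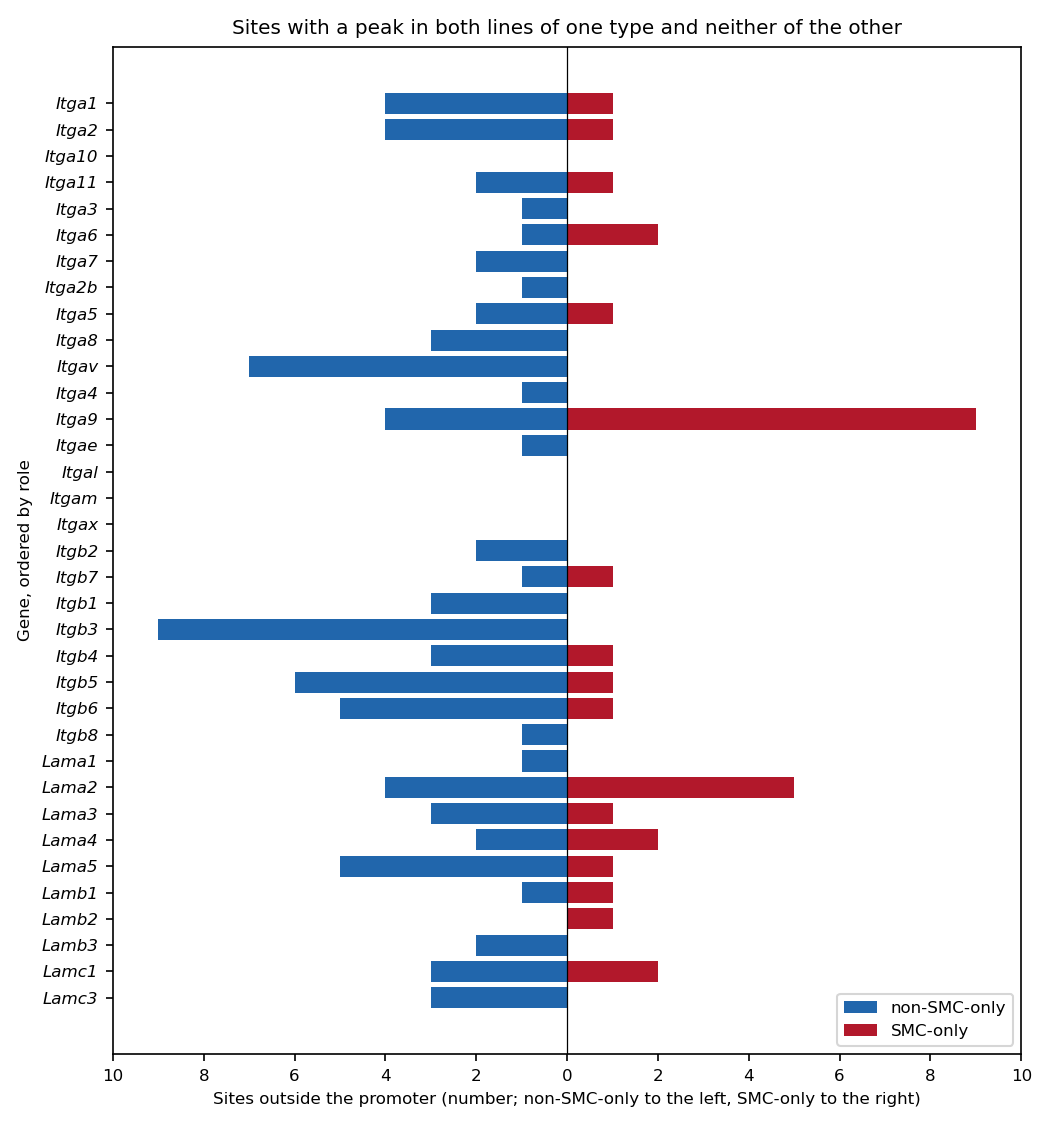
Number of other sites of each gene called non-SMC-only (blue, to the left) and SMC-only (red, to the right), with genes ordered by role. Itgb3 (9) and Itgav (7) reach farthest to the left without an SMC-only site, and Itga9 (9) and Lama2 (5) farthest to the right.

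Itga9 (chr9:118606690-118901003) was the member with the most SMC-only sites when all peaks were used. Its product pairs with the common beta chain and binds tenascin-C, osteopontin and VCAM-1. It had 29 and 46 peaks in the SMC lines and 20 and 18 in the non-SMC lines, without overlap. Strong peaks numbered 2, 6, 4 and 3 and did overlap. Of 85 other sites, 9 were SMC-only and 4 non-SMC-only. These were 7 and 3 with equal numbers of peaks, and 1 and 1 with strong peaks alone. In thinned lists they were 3 and 2 at p up to 0.01, and 0 and 1 at p up to 1e-05. The 9 SMC-only sites were all intronic, from 38.1 kb to 258 kb from the TSS, 7 of them held a SOX match and none the AP-1 letters. The strongest, printed above, was followed by sites at 225 kb (81.6 and 94.4) and 212 kb (72.0 and 90.8), while the farthest stood at percentiles of 3.17 and 2.33 and was among the weakest peaks of its lists. The related Itga4, a receptor for VCAM-1 and fibronectin, had 4 other sites, 1 of them non-SMC-only.

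Of the collagen receptors, Itga1 and Itga2 had 4 non-SMC-only sites and 1 SMC-only site each. Itga2 (chr13:114833081-114932100), which pairs with the common beta chain on epithelial cells and platelets, had 5, 3, 8 and 13 peaks and 1, 0, 3 and 4 strong peaks, higher in both non-SMC lines on either count. Its highest non-SMC-only site lay at 71.7 kb with percentiles of 92.1 and 94.3 and held the AP-1 letters. Its SMC-only site stood at percentile 99.9 in SMC line 1 but 32.1 in SMC line 2. Itga1 had 1, 1, 8 and 5 strong peaks. Itga11 had 2 non-SMC-only sites and 1 SMC-only site, at 52.7 kb, and Itga10 had neither kind and 3 sites with a peak in all 4 lines, 2 of which lay at promoters of neighbouring genes.

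The laminin-binding alpha chains had 4 non-SMC-only sites of 48 (8.33%) and 2 SMC-only sites (4.17%), near the shares over all genes (7.3% and 4.26%). Itga6 (chr2:71745616-71858416), the alpha chain of hemidesmosomes when paired with Itgb4, had 7, 12, 5 and 14 peaks and 0, 1, 1 and 1 strong peaks, both overlapping between the types. Its 2 SMC-only sites lay at 49.1 kb (82.4 and 82.6) and 60.3 kb (80.5 and 92.1), and its non-SMC-only site lay between them at 56.2 kb (82.1 and 82.6). No promoter peak was counted at the annotated gene start. The first protein-coding transcript of Itga6 starts 41.3 kb farther on, where a peak was found in both SMC lines and in non-SMC line 2. Itga3 had 1, 2, 5 and 3 strong peaks and Itga7 0, 0, 4 and 1, each higher in the non-SMC lines.

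The leukocyte alpha chains Itgae, Itgal, Itgam and Itgax had 50 other sites, of which 1 (2.00%) was non-SMC-only and none SMC-only. They held 3 strong peaks over all lines, 2 in Itgae in non-SMC line 1 and 1 in Itgam in non-SMC line 2. Their promoter peaks ranged from percentile 8.81 to 55.0 and were absent for Itgal, Itgam and Itgax in SMC line 1 and non-SMC line 1. Itgam and Itgax are neighbours and shared 2 regions. The beta chains Itgb2 and Itgb7 differed from these: Itgb2 had 0, 0, 3 and 2 strong peaks and Itgb7 0, 0, 3 and 1. For Itgb7 the highest peaks lay 1104 and 1143 bp into the gene at percentiles of 94.1 and 92.1 in the non-SMC lines. At the 4 leukocyte marker genes, strong peaks likewise numbered 0 to 2 per gene and line.

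**Figure D3:**
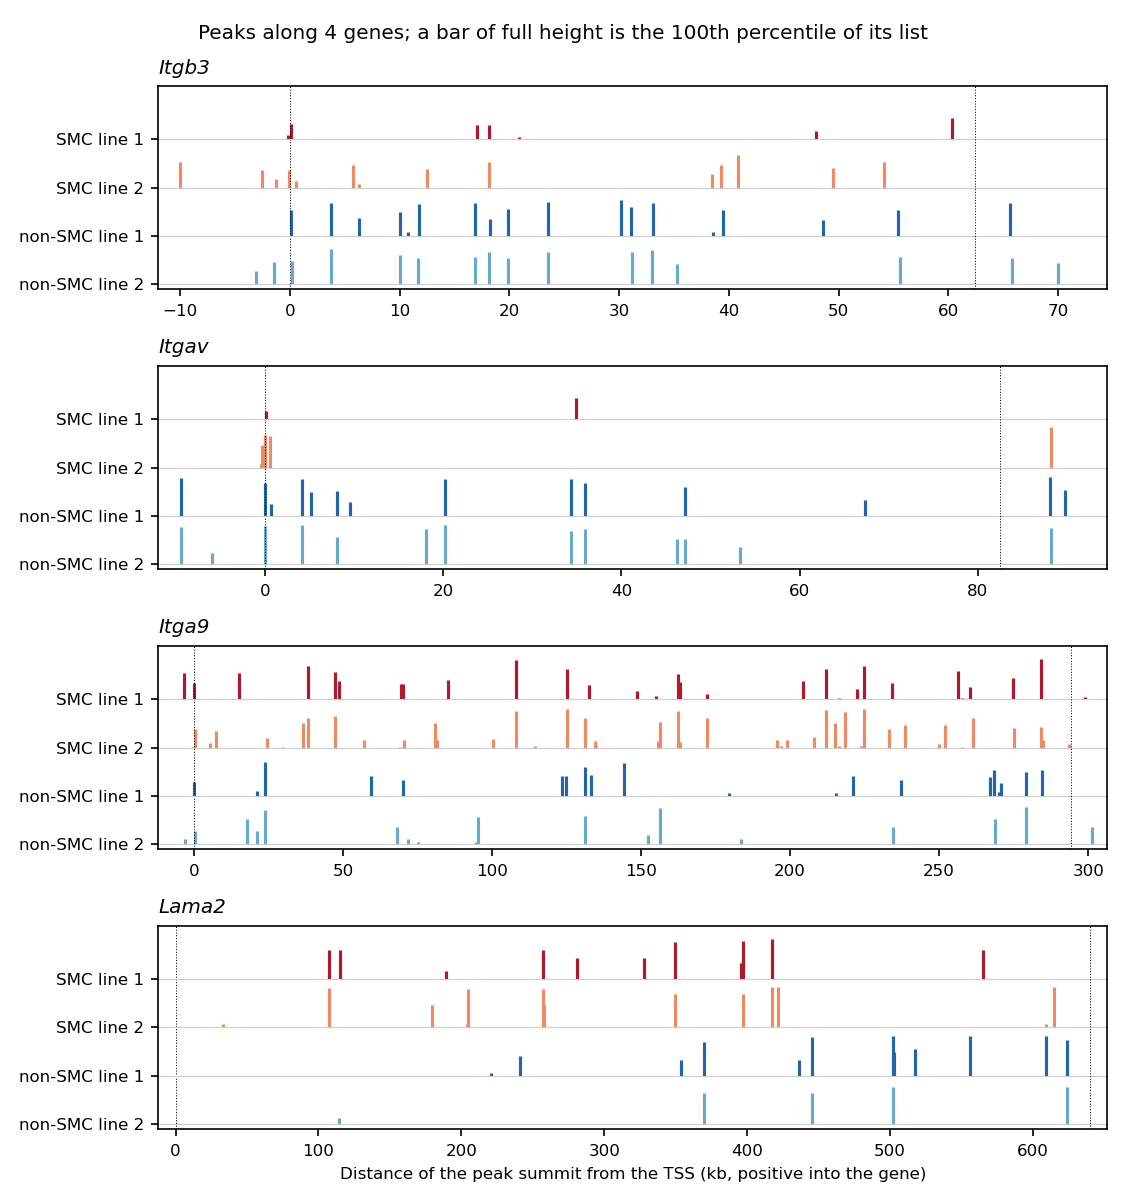
Peaks along Itgb3, Itgav, Itga9 and Lama2 in the 4 lines by distance of the summit from the TSS (kb), where the height of a bar is the percentile of fold enrichment within its list and dotted lines mark the ends of the gene. Non-SMC-only sites numbered 9 of 29 other sites at Itgb3 and 7 of 17 at Itgav, without an SMC-only site. At Itga9, 9 of 85 were SMC-only and 4 non-SMC-only. Most other sites of each gene were of neither kind.

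The laminin genes stood closer to the background than the integrins. They had 24 non-SMC-only sites (7.97%) and 13 SMC-only sites (4.32%) of 301, while the integrins had 63 (12.8%) and 19 (3.87%) of 491. Several laminin genes held both kinds of site. Lama2 (chr10:26980036-27619758), the alpha chain of muscle and nerve basement membranes, had 5 SMC-only and 4 non-SMC-only sites. It had 12, 13, 12 and 5 peaks and 3, 6, 6 and 2 strong peaks, with overlap between the types. All of these sites were intronic. The SMC-only sites lay from 108 kb to 417 kb from the TSS and the non-SMC-only sites from 370 kb to 624 kb. None of the 5 SMC-only sites held the AP-1 letters and 2 of the 4 non-SMC-only sites did.

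Lama4 (chr10:38965515-39110188), a chain of vascular basement membranes, had 12 and 16 peaks in the SMC lines and 4 and 5 in the non-SMC lines, the clearest excess in SMC lines beside Itga9. Its strong peaks were few, 2, 1, 1 and 1. It had 2 SMC-only sites, at 58.1 kb (98.1 and 68.2) and 88.9 kb (78.7 and 82.3), and 2 non-SMC-only sites next to each other at 28.7 kb and 29.3 kb. Lama5 (chr2:180176373-180225859), the widespread epithelial alpha chain, showed the reverse, with 11, 5, 13 and 20 peaks and 0, 2, 4 and 7 strong peaks. Its 5 non-SMC-only sites were mostly moderate, the highest at -7.45 kb with percentiles of 66.5 and 88.4. Its local background was 2.50, 2.91, 2.43 and 4.67 times the genome value.

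Lama3 (chr18:12333819-12583013) and Lamb3 (chr1:193207699-193343878) encode chains of the laminin of hemidesmosomes. Lama3 had 18, 32, 21 and 21 peaks and 2, 3, 9 and 2 strong peaks, so that the excess of strong peaks was in non-SMC line 1 alone. It had 3 non-SMC-only sites and 1 SMC-only site. Lamb3 had 11, 22, 17 and 18 peaks and 0, 3, 8 and 4 strong peaks, higher in both non-SMC lines. Its 2 non-SMC-only sites both held the AP-1 letters, and the site printed above was the second highest non-SMC-only site of all members after that of Lamc1.

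Lamc1 (chr1:153218922-153332786), the gamma chain of most laminins, had 7, 14, 10 and 11 peaks and 2, 3, 6 and 4 strong peaks. Its called sites stood at high percentiles, with SMC-only sites at 108 kb (92.2 and 97.1) and 57.9 kb (78.7 and 92.1) and non-SMC-only sites at 32.2 kb (printed above), 40.4 kb (90.0 and 97.6) and 66.1 kb (88.9 and 86.5). The beta chain gene Lamb1, named after its values were seen, had the highest SMC-only site of all members, 29.5 kb into the gene (99.6 and 99.2), and a non-SMC-only site 27.3 kb into it (82.7 and 90.3). Lamc3 had 7, 7, 11 and 5 peaks, 0, 0, 2 and 2 strong peaks and 3 non-SMC-only sites, the highest at 47.9 kb with percentiles of 95.6 and 84.9.

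A promoter peak in all 4 lines was found for 13 of the 35 members (48.7% of all protein-coding genes) and in no line for Itga6 and Lama2 (19.2%). Itgb4, Lama4 and Lamc3 were SMC-only (background 3.08%) and Lamb3 was non-SMC-only (2.45%). When the start of every protein-coding transcript was used, Itgb4 and Lamb3 were no longer called: 2 other starts of Itgb4, 0.27 kb and 3.08 kb on, had a peak in non-SMC line 1 too, and 2 other starts of Lamb3, 94.3 kb and 94.5 kb on, had one in SMC line 2 alone. The 4 calls rested mostly on weak peaks. For Itgb4, the beta chain of hemidesmosomes, the percentiles were 5.05 and 3.45 in the SMC lines. For Lamc3 they were 30.7 and 1.09, and for Lamb3 33.5 and 14.1 in the non-SMC lines. Lama4 was the highest, at 70.0 and 68.2, with summits at 62 bp from the TSS in SMC line 1 and at -143 bp in SMC line 2. Taken as single regions, the sites in the promoter windows gave the opposite direction. Of 84 such regions of the members, 11 (13.1%) were non-SMC-only and 1 (1.19%) SMC-only, against 5.71% and 4.18% over the 36465 promoter regions of all genes.

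With strong peaks alone, none of these 4 promoters was called. Itga1, Itga2, Itga5, Itgav, Itgb7 and Lama5 were then non-SMC-only (6 of 35, against 5.3% of all genes) and no member was SMC-only (1.63%). With equal numbers of peaks, 1 member promoter was SMC-only (3.59%) and 2 non-SMC-only (2.75%). In thinned lists these were 1 (3.5%) and 4 (3.45%) at p up to 0.01, and 0 (1.62%) and 2 (4.1%) at p up to 1e-05. For Itga1 the promoter peak stood at percentile 82.9 in SMC line 1 and 94.5 and 93.3 in the non-SMC lines, and SMC line 2 had none. Peaks at the promoter of Itgb1, the common beta chain, were high in every line, at percentiles of 99.6, 97.2, 93.2 and 98.7. Those of Itgb8, which with Itgav activates TGF-beta, stood at 92.0, 94.4, 93.5 and 98.3. The types overlapped at both promoters. Itgb4 had 6, 6, 11 and 7 peaks and 0, 0, 3 and 3 strong peaks, higher in the non-SMC lines, against the direction of its promoter call.

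Of the 32 SMC-only sites, 27 (84.4%) lay in introns, at a median of 74.3 kb from the TSS, and of the 87 non-SMC-only sites 68 (78.2%), at a median of 34.5 kb. The 655 sites of the members with any other mix of lines were 75.9% intronic, at a median of 50.2 kb. At 2 sites of each kind the region touched the promoter of another gene. Of the 18 sites with a peak in all 4 lines, 10 did so, among them the promoters of Pelo within Itga1 and Pdk2 beside Itga3. Both kinds ranged from low to high peaks: the mean percentile of the SMC-only sites ran from 2.75 to 99.4 and that of the non-SMC-only sites from 18.5 to 99.6, with medians of 77.6 and 80.4. A mean percentile of at least 95 was reached by 7 non-SMC-only and 2 SMC-only sites.

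The letters of the AP-1 motif, bound by FOS and JUN proteins, divided the 2 kinds of site. TGACTCA or TGAGTCA occurred within 100 bp of the summit in 47 of 87 non-SMC-only sites (54.0%, 95% Wilson interval 43.6 to 64.1) and in 2 of 32 SMC-only sites (6.25%, 1.73 to 20.1), in Lama4 and Lamc1. The intervals cover counting error only. Over all genes the shares were 46.2% and 4.09%, and among sites with a peak in all 4 lines 11.4%, so the members followed the whole set of sites. The AP-1 sites were spread over 24 of the 30 members that had a non-SMC-only site. A SOX match (ACAAAG or ACAATG, either strand) was found in 17 of 32 SMC-only sites (53.1%, against 40.3% over all genes) and in 29 of 87 non-SMC-only sites (33.3%, against 27.0%). The E-box CAGCTG was found in 10 SMC-only sites (31.3%, against 21.0%) and 8 non-SMC-only sites (9.20%, against 14.4%).

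Other motifs differed less between the members and all genes. The TEAD letters GGAATG were found in 18.4% of the non-SMC-only and 9.38% of the SMC-only sites of the members, against 19.0% and 9.32% over all genes. RUNX letters (TGTGGT or TGCGGT) were found in 28.7% and 18.8%, against 31.5% and 16.3%, and the NFI letters TTGGCA in 20.7% and 12.5%, against 16.2% and 16.9%. A match gives the letters in the window and not a bound site, and 32 SMC-only sites leave wide limits on each share.

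**Figure D4:**
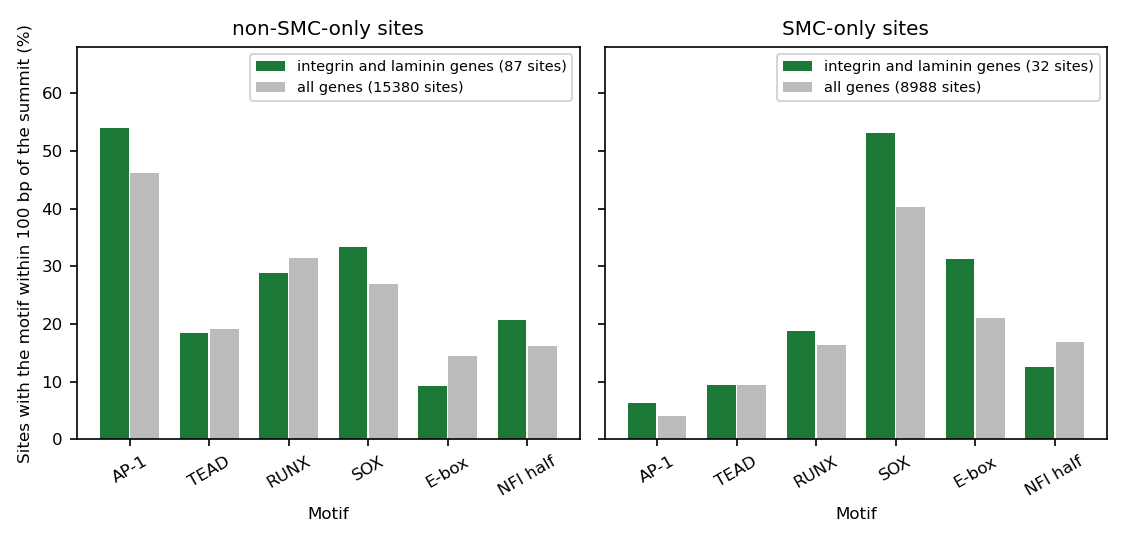
Share of sites (%) with each motif within 100 bp of the summit, for the non-SMC-only (left) and SMC-only (right) sites of the integrin and laminin genes (green) and of all protein-coding genes (grey). AP-1 is found in 54.0% of the members' non-SMC-only sites and 6.25% of their SMC-only sites, close to the 46.2% and 4.09% over all genes.

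The intracellular and extracellular partners of these proteins were examined as 3 further lists. Among 21 integrin adaptors and kinases, such as the talins, kindlins and focal adhesion kinase, 77 of 685 other sites (11.2%) were non-SMC-only and 27 (3.94%) SMC-only. More strong peaks in each non-SMC line were found in 11 of these genes (20% of all genes). More in each SMC line were found in none (3.15%). Tns3 had 16 and Tns1 11 non-SMC-only sites, the most of this list. Src was the adaptor gene with a non-SMC-only promoter and Fermt3, the leukocyte kindlin, the one with an SMC-only promoter. Among 11 basement membrane partners, 27 of 240 sites (11.3%) were non-SMC-only and 12 (5.00%) SMC-only.

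Among 11 integrin ligands and counter-receptors, 28 of 148 sites (18.9%) were non-SMC-only and 5 (3.38%) SMC-only, and 14 of the 28 lay in Fbn1, which encodes the RGD protein fibrillin. Promoters of Tnc, Spp1, Vcam1 and Postn were non-SMC-only, 4 of 11 genes against 2.45% of all genes. The first 3 of these encode ligands of Itga9, and Vcam1 encodes a ligand of Itga4 too. Cdh1, which encodes E-cadherin, the ligand of Itgae, had an SMC-only promoter. Spp1 had 0, 0, 4 and 4 peaks and Vcam1 1, 1, 4 and 5, without overlap between the types.

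**Figure D5:**
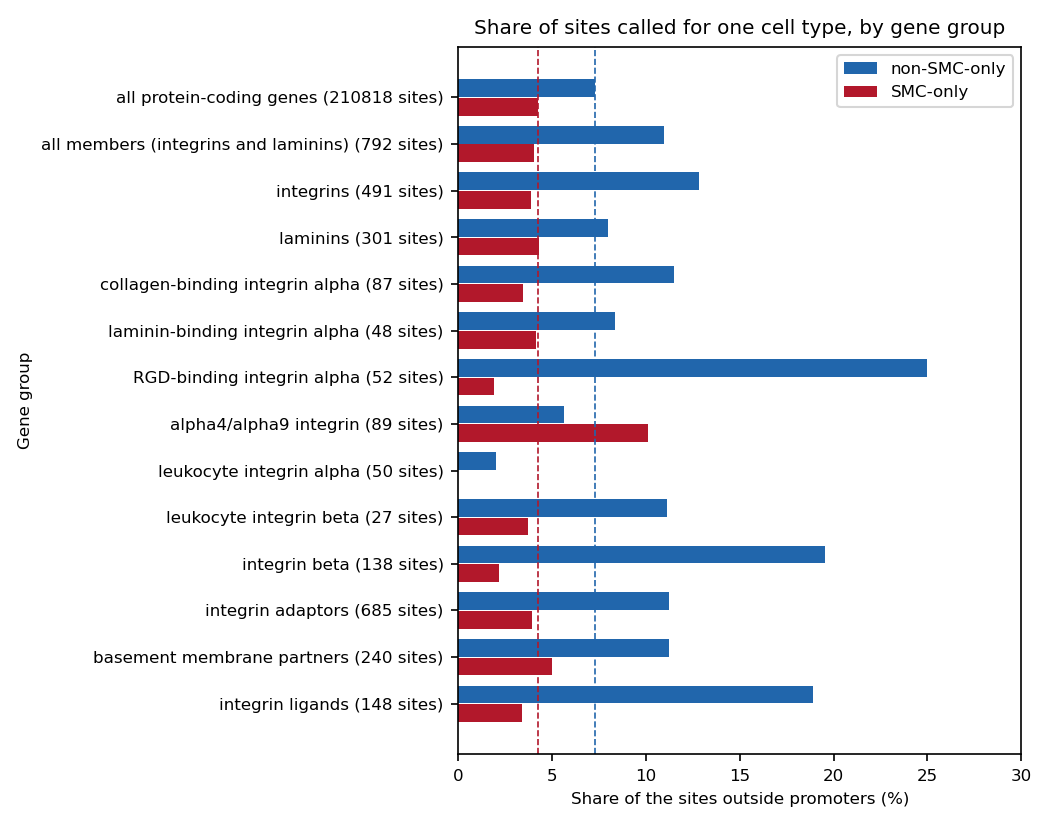
Share of other sites (%) called non-SMC-only (blue) and SMC-only (red) for all protein-coding genes, the integrin and laminin genes, their subgroups and 3 lists of partner genes; dashed lines mark the shares over all genes (7.3% and 4.26%). The RGD-binding alpha chains (25.0%), the beta chains (19.6%) and the ligands (18.9%) have the longest blue bars, and in the group of Itga4 and Itga9 alone the red bar (10.1%) is longer than the blue (5.62%).

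Itgb3, Itgav and Itgb5 together held 22 of the 87 non-SMC-only sites, and Itga9 and Lama2 held 14 of the 32 SMC-only sites. Without Itgb3, Itgav and Itgb5, 9.22% of 705 other sites were non-SMC-only, against 7.3% over all genes. Without Itga9 and Lama2, 2.66% of the other sites were SMC-only, against 4.26%. At least 1 non-SMC-only site was found in 30 of the 35 members (37.2% of all genes), at least 3 in 15 (8.7%) and at least 5 in 5 (3.66%), and at least 1 SMC-only site in 17 (25.8%), with both kinds in 16. Non-SMC-only sites outnumbered SMC-only sites in 24 members (28.8%) and were outnumbered in 4 members (14% of all genes), namely Itga6, Itga9, Lama2 and Lamb2. These counts of genes, too, are not matched for length, with medians of 64.4 kb for the members and 17.4 kb for all genes.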

How the data were processed

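ATAC-seq peak lists of 4 libraries (SMC lines 1 and 2, non-SMC lines 1 and 2) were used. According to the study's methods, reads were mapped to mm10 with Bowtie2, duplicates were removed and peaks were called with MACS2. The submitters' processing notes give Bowtie2 2.3.4 and MACS2 2.1.1. Peaks were called in each library separately. In the deposited lists the authors gave each peak a fold enrichment over local background, a −log10 p and −log10 q, and a display score. The score was not used. All peaks had a −log10 p of at least 2.00, so the lists hold weak peaks, and the lists carry no read totals.

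Peaks on chromosomes other than 1 to 19, X and Y were left out (61 to 85 per list). Overlapping peaks were merged with Python 3.11.15 (pandas 2.3.3, numpy 2.4.6), and overlaps were checked with bedtools 2.31.1 on shifted peaks. Pileup and background at each summit were recovered from fold enrichment and p, tested on simulated data, and used to thin the lists to 50% of the depth of SMC line 1. Promoters were 6 kb around the 5′ end of each gene. Motifs were searched, on either strand, in the 201 bases centred on the highest summit of a site. Sequences came from the GRCm38 assembly, which has the coordinates of mm10.

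Members and gene lists were chosen with earlier results of these data known. Values in each line are given for members with a called promoter, the 8 with the most non-SMC-only sites and the 6 with the most SMC-only sites, and sequences for 4 of them on chromosomes other than 18 and outside UTRs. Other members are described by counts, and those named beyond this rule were chosen after their values were seen. No test was run. Alternatives covered the peak threshold, equal numbers of peaks, thinning, the overlap, the windows, the TSS, the motif window and leaving out each line. The use of 1 line of each type, and all alternatives for strong peaks, were added after the data were seen.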

Additional observations from a re-analysis of the deposited data

Results flagged for a closer look

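Several counts moved in opposite directions between the lines numbered 1 and those numbered 2, which share only a number. Members with a promoter peak were fewer in SMC by 7 between the lines numbered 1 (-7) and more by 3 between those numbered 2. The number of peaks, given as SMC minus non-SMC for the lines numbered 1 and then 2, was -6 and 4 at Lamb3, -4 and 2 at Lamc3, and -14 and 2 at Itgb5. It was -14 and 5 at Itgb6, -3 and 3 at Lamc1 and -3 and 11 at Lama3. At Itga6 the order was the reverse, 2 and -2. These differences between line numbers were not tested. SMC line 1 had the shortest list and the lowest background, and SMC line 2 the longest list.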

How the results depend on the processing

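No paired analysis was possible because the counts come from no test and the labels tie the line numbers to no shared animal or batch. The 87 non-SMC-only and 32 SMC-only sites, their difference of -6.94 percentage points, the called promoters (3 SMC-only, 1 non-SMC-only) and the AP-1 shares of 54.0% and 6.25% were recomputed under each alternative. With strong peaks alone, sites numbered 6 SMC-only and 57 non-SMC-only (-30.9 points), promoters 0 and 6, and AP-1 reached 64.9% of non-SMC-only sites. With equal numbers of peaks the difference was -10.02 points and promoters numbered 1 and 2. After thinning at p up to 0.01, SMC-only sites fell to 17 (-11.6 points), with 1 and 4 promoters. At p up to 1e-05, sites numbered 4 and 24 (-16.8 points), promoters 0 and 2, and AP-1 was in 25.0% of the SMC-only sites. A reciprocal overlap of 50% left 18 SMC-only sites and 1 and 0 promoters. Using every transcript start left 0 non-SMC-only promoters, and a motif window of 50 bp gave AP-1 in 40.2%. Shares over all genes were not computed for the reciprocal overlap, the transcript starts or this motif window.

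Leaving out 1 line lets the call rest on the other line of that type alone, which any gene meets more easily. No share over all genes was computed for these settings or for 1 line of each type. Their counts therefore describe the members without a background. SMC-only sites then ranged from 37 to 240, non-SMC-only sites from 95 to 235, and the difference from -29.1 to 21.1 points. It was positive without SMC line 1 (21.1) and without SMC line 2 (7.78). SMC-only promoters ranged from 3 to 5, non-SMC-only promoters from 1 to 9, and AP-1 in non-SMC-only sites from 26.4% to 52.6%. With the lines numbered 1 alone, sites numbered 157 and 248 (-20.7 points), 10 promoters were non-SMC-only and AP-1 was in 33.5%. With those numbered 2, sites numbered 268 and 249 (3.43 points, reversed), promoters 6 and 3, and AP-1 was in 26.1%. The cause of this reversal was not tested.

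Of the members, 19 had more strong peaks in each non-SMC line and 0 in each SMC line. These became 9 and 3 with equal numbers of strongest peaks and 10 and 2 with all peaks. With 1 line left out they ranged from 20 to 23 and from 1 to 3, without a share over all genes computed for comparison. A −log10 q of at least 3, and thinning, each gave 1 member higher in the SMC lines, Lama4. The shallow SMC line 1 and non-SMC line 2 limit what weak sites can show, since absence from a list is absence of a call.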
